A study of Mus musculus with 48 samples.

Results

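RNA of 10 neutrophil-associated genes was followed through 48 libraries of mouse macrophages. The genes are the calprotectin subunits S100a8 and S100a9, the primary granule genes Elane and Mpo, the secondary granule genes Camp, Ltf, Ngp and Mmp8, the tertiary granule gene Mmp9 and the surface gene Cd177. Members were chosen by gene symbol, and all 10 were found among the 51789 lines of the count table. A filter on low counts, applied apart to peritoneal and to marrow-derived libraries, kept 3 of the 10 (S100a8, Mmp8 and Mmp9) in the peritoneal libraries and 9 of the 10 (all except Elane) in the bone marrow-derived libraries. The others are given as counts.

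Calprotectin is a complex of the calcium-binding proteins S100A8 and S100A9. It makes up much of the neutrophil cytosol, binds zinc and manganese, and is also made by monocytes and by activated macrophages. The granule proteins are made in waves as granulocytes mature in the marrow: elastase and myeloperoxidase at the promyelocyte stage under C/EBP alpha and Runx1, then lactoferrin, cathelicidin and Ngp at the myelocyte stage under C/EBP epsilon, then the gelatinase Mmp9. Mature macrophages are not known for making the proteins of the primary and secondary granules, so their RNA in a macrophage culture is often read as a trace of granulocytes or their precursors. In these bulk libraries, fewer cells of a type and less RNA per cell cannot be told apart.

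The libraries fall into 8 populations, each treated for 4 h with 10 µM AP-3-84 or with its vehicle DMSO, with 3 libraries per population and treatment. Ascites macrophages were taken by F4/80 beads from the peritoneum 45 days after injection of ID8 tumour cells, and the labels give B6(Cg)-Tyrc-2J/J hosts. Thio macrophages were taken in the same way 4 days after 1 ml of 3% thioglycollate from wild-type C57BL/6 hosts, so tumour, irritant and host strain label differ together between them. The other populations were grown from bone marrow for 6 days in 10 ng/mL M-CSF, from wild-type (WT) or p53 knockout (KO) mice. They stayed unpolarized (M0) or were polarized for 24 h, either with LPS (100 ng/mL) plus IFN-γ (50 ng/mL), called M1, or with IL-4 plus IL-13 (10 ng/mL of either), called M2. Names such as WT_M0 join genotype and polarization. The genotype field calls every marrow-derived library wild-type, while titles and descriptions separate WT from KO. The part of Trp53 that was deleted is not given. Nothing says that the 3 libraries of a group came from separate animals, so p-values measure the spread between these libraries, which may be technical.

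Total counts were 15532373 to 19417581 per peritoneal library and 3081707 to 4645148 per marrow-derived library, so a few counts mean less in the former. Levels are CPM, counts scaled to a common library size with TMM factors in edgeR. Changes are log2 fold changes (log2FC) with a standard error (SE) from edgeR's quasi-likelihood test, and a gene was called where its p, adjusted by Benjamini-Hochberg over all genes tested in that comparison, lay under 0.05. Unless another setting is named, calls by edgeR are those with the filter on low counts and all libraries. Trp53 RNA, in CPM of total counts, ranged from 4.17 to 13.9 over 18 WT libraries and from 2.81 to 9.3 over 18 KO libraries, which overlap. Reads from the 3′ end outside a deleted part would check nothing. Markers of macrophages were high everywhere, from 25800 to 35590 summed CPM over 8 genes in peritoneal libraries and from 6761 to 49380 in marrow-derived ones. The 8 genes include Lyz2, also listed here among genes of other granule proteins, so the sum alone does not set macrophages apart from granulocytes. The libraries labelled KO_M1 vehicle 3, KO_M1 AP-3-84 1, KO_M2 vehicle 3 and WT_M2 vehicle 1 stood apart in several members, and results that rest on them are given with and without them. Each gene's spread was estimated over all marrow-derived libraries together, so these libraries also enter the SE of comparisons that do not contain them. Those comparisons were not refitted without them, so a missing call there need not reflect the compared groups alone.

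S100a8 (ENSMUSG00000056054, plus strand) and S100a9 (ENSMUSG00000056071, minus strand) are neighbours on chromosome 3, from 90668978 to 90670035 and from 90692632 to 90695721 in GRCm38. Camp, Ngp and Ltf lie on chromosome 9 (109847379 to 109849617, 110419747 to 110423012 and 111019271 to 111042767). The bases just upstream of their starts are shown because S100a8 and S100a9 parted in the peritoneal libraries, and because Ltf and Ngp, like Camp, were highest in the same 4 marrow-derived libraries as calprotectin. Sequences are from RefSeq (GRCm38.p6), cut to bases upstream of the start in both RefSeq and GENCODE M21, and written 5′ to 3′ on the gene's strand. They are chr3:90668821-90668977 (plus), chr3:90695722-90695971 (minus), chr9:111019042-111019270 (plus) and chr9:110419558-110419746 (plus). Capitals mark matches on either strand to TTGNGNAA, a C/EBP-type motif, and to GAGGAA, the core that PU.1 binds. No match overlapped another in these 4 sequences.
S100a8: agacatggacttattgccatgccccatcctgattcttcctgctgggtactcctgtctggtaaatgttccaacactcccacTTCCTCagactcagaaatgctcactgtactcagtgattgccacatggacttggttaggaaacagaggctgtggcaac
S100a9: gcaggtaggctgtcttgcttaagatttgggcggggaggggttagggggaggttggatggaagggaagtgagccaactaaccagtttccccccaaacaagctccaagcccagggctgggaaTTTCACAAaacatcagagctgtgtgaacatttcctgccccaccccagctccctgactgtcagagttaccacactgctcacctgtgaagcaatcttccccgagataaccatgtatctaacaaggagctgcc
Ltf: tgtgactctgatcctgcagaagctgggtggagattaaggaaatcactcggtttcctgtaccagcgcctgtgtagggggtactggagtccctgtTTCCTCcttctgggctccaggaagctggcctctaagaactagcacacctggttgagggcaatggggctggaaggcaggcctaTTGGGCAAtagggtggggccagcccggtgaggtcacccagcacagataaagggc
Ngp: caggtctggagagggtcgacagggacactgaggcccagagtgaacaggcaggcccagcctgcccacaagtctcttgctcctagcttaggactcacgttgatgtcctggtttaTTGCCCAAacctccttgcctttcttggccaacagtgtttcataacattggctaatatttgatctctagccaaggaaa
The C/EBP-type motif occurred 1 time each upstream of S100a9, Ltf and Ngp and was not in the 157 bases shown for S100a8. Windows of the same length upstream of all 32851 promoters in the table held it in 7.96% (157 bases), 11.7% (250 bases), 11.0% (229 bases) and 9.49% (189 bases). GAGGAA occurred 1 time each upstream of S100a8 and Ltf, against 15.3% and 21.3% of all promoters at those lengths, and TATAAA in none of the 4. These counts hold for the bases shown: in all 250 bases before the RefSeq start, S100a8 held GAGGAA 2 times and TATAAA 1 time, and Ngp held the C/EBP-type motif 2 times (23.3%, 12.4% and 11.7% of all promoters held them there). A match describes the letters only, and its absence says nothing of the factor. Camp, whose bases are not shown, held no match to TTGNGNAA, GAGGAA or TATAAA in its 250 bases, so the genes highest in the same 4 libraries did not all share a motif. In 250 bases the C/EBP-type motif was also absent for Elane and Mpo, and occurred 1 time each for Mmp8 and Cd177. The promoter table matched 9 of the 10 members, all except Mmp9.

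Peritoneal macrophages carried S100a8 RNA with almost no S100a9. S100a8 stood at 33.8, 32.2 and 28.9 CPM in the ascites vehicle libraries and at 61.7, 64.4 and 65.0 CPM in the thio vehicle libraries, while S100a9 was at 0 counts in 8 of the 12 peritoneal libraries, with a highest count of 4. Over the 12 libraries this came to 8975 counts of S100a8 and 13 of S100a9. In the marrow-derived libraries S100a9 was never under 78.4 CPM. Levels of peritoneal and marrow-derived libraries stand side by side without a test, since origin, culture, depth and host cannot be told apart.

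**Figure D1:**
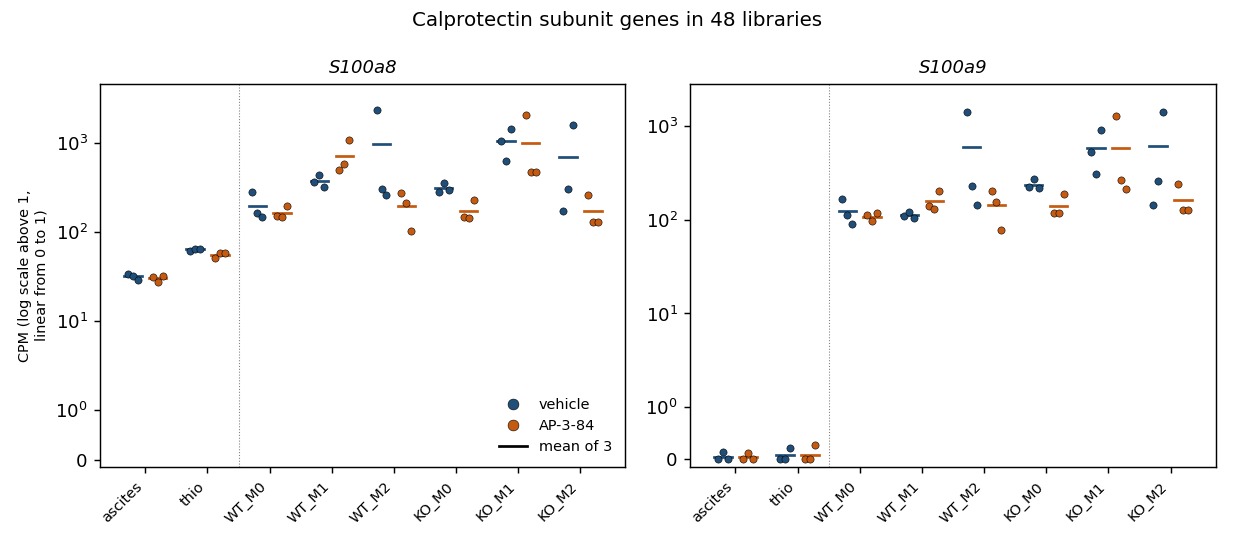
S100a8 (left) and S100a9 (right) in each of the 48 libraries, in CPM on an axis that is logarithmic above 1 and linear below, by population, with vehicle in blue and AP-3-84 in orange and bars at the mean of 3. S100a9 lies at 0 to 0.268 CPM in the 12 peritoneal libraries, left of the dotted line, and at 78.4 to 1419 CPM in the 36 others.

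The collagenase Mmp8 and, at a low level, the gelatinase Mmp9 were the granule genes found in the peritoneum. Mmp8 stood at 35.4, 32.7 and 34.9 CPM in ascites and at 118.9, 113.0 and 129.7 CPM in thio vehicle libraries. Mmp9 stood at 2.37 to 3.74 CPM and at 5.32 to 8.14 CPM. For each of these genes and for S100a8, every ascites vehicle library lay below every thio vehicle library.

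All 3 tested members were called lower in ascites than in thio (33.7% of all tested genes were called). The log2FC was -1.81 for Mmp8 (SE 0.0786, edgeR's adjusted p 5.87e-12), -1.01 for S100a8 (SE 0.0887, 6.68e-08) and -0.97 for Mmp9 (SE 0.254, 0.00585). The Mmp9 call was lost without thio vehicle replicate 2 (edgeR's adjusted p 0.0514, against 0.00125 to 0.0514 over its 11 alternatives). In the same vehicle libraries 5 epithelial or ID8 markers summed to 154.6 to 185.0 CPM in ascites and to 1.03 to 3.38 CPM in thio, where 2 of the 5 were at 0. The 5 monocyte markers summed to 475.5 to 505.7 CPM and to 23.4 to 27.1 CPM. The part of either in these differences was not tested.

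The remaining granule genes were at or near 0 in the peritoneum. Ngp, a cystatin-like granule protein, had 0 counts in all 12 libraries, which allows up to 0.0150 CPM by counting error alone (3 counts over their summed total). Elane had 2 counts in all, Ltf 18, Camp 21 and Cd177 16. Camp reached 12 counts in ascites AP-3-84 replicate 2 and no more than 6 elsewhere. Among 8 neutrophil markers, the receptors Cxcr2 (33.4 to 61.3 CPM) and Csf3r (61.4 to 89.9 CPM) were present in every peritoneal library, while Stfa2l1 and Itgb2l were at 0 in all 12 and Ly6g was at 0 in 8 of the 12.

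Mpo was at 0 counts in each of the 6 peritoneal vehicle libraries and above 0 in each of the 6 treated with AP-3-84. The counts were 3, 9 and 2 in ascites and 2, 1 and 3 in thio. The pooled Mpo rate with AP-3-84 was 5.12-fold a floor of 3 counts over the vehicle group in ascites and 2.2-fold in thio. The floor covers the counting error of the vehicle side only. Neither the error of the AP-3-84 counts (14 and 6 in all) nor the spread between libraries is covered, so these are not lower bounds of a change. The counts lay below the filter, so edgeR gave no test of them, and the pattern was noticed after the values were seen. The share of all genes at such low counts with the same pattern was not counted, so no effect of AP-3-84 on Mpo is drawn from it.

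In marrow-derived macrophages, vehicle libraries were compared by polarization and by genotype. By edgeR, 3 of the 9 tested members were called higher in WT_M2 than in WT_M0 (23.4% of all tested genes were called), 3 higher in KO_M1 than in KO_M0 (44.5%), 3 higher in KO_M1 than in WT_M1 (11.6%), and 1 higher with 1 lower in KO_M2 against WT_M2 (3.56%). No member was called in WT_M1 against WT_M0 (15.5% of all genes), where 2 had an unadjusted p under 0.05 and DESeq2 called 2. None was called in KO_M2 against KO_M0 (38.0%), with 1 at an unadjusted p under 0.05 and 0 by DESeq2, nor in KO_M0 against WT_M0 (33.2%), with 2 and 0. The difference of the M1 change between genotypes was called for 1 member (20.7%), and that of the M2 change for 0 (27.1%), with 1 at an unadjusted p under 0.05 and 0 by DESeq2. Of all 11779 tested genes, 3326 had an unadjusted p under 0.05 in WT_M1 against WT_M0 and 5502 in KO_M2 against KO_M0. It was 5125 in KO_M0 against WT_M0 and 4615 for the difference of the M2 change. With 9 members tested, a call of 3 is close to the background share in the comparisons of polarization and above it in KO_M1 against WT_M1.

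**Figure D2:**
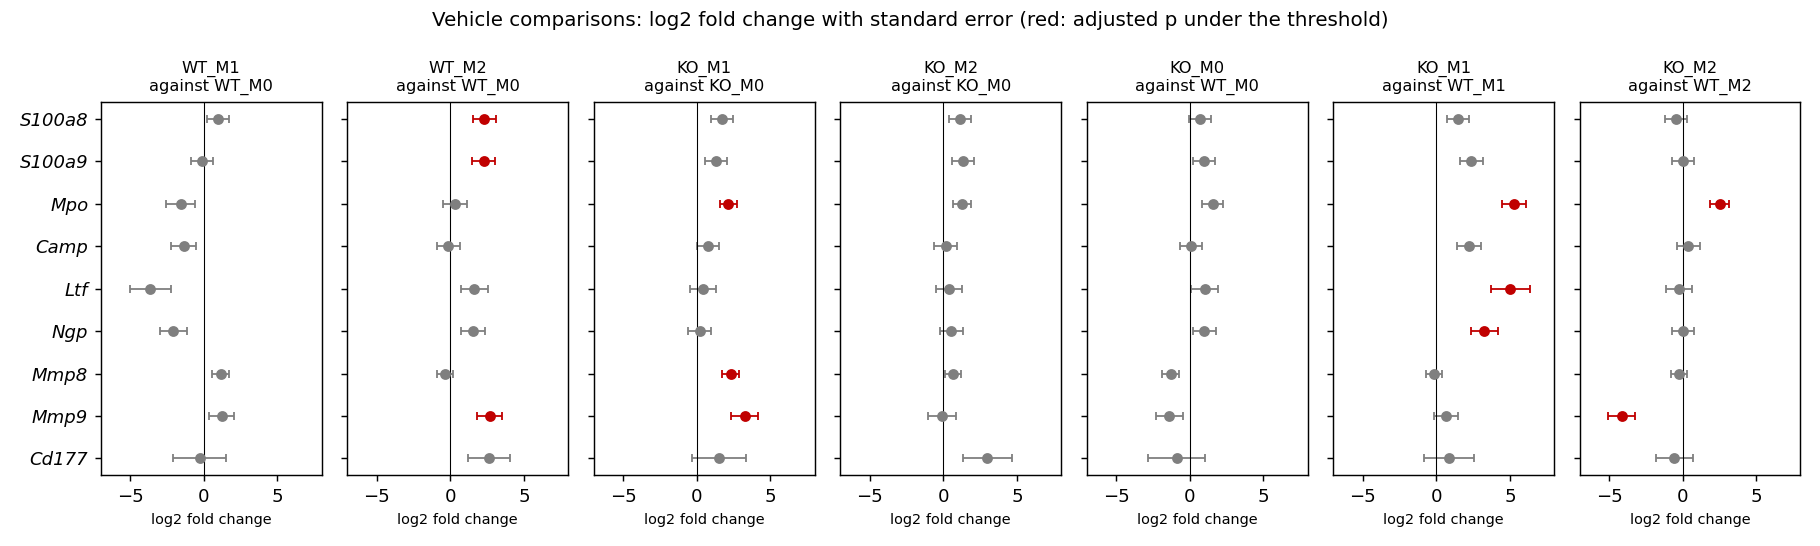
Log2 fold change (horizontal axis) of the 9 tested members in 7 comparisons of marrow-derived vehicle libraries, with bars of 1 SE, in red where edgeR's adjusted p was under 0.05. Mpo lies at 5.27 in KO_M1 against WT_M1, and Mmp8, Mpo and Mmp9 lie at 2.31, 2.14 and 3.26 in KO_M1 against KO_M0.

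Calprotectin RNA stood higher with M1 activation in KO macrophages than in unpolarized ones in every library, though neither subunit passed the test there. S100a8 stood at 282.7, 353.7 and 298.9 CPM in the 3 KO_M0 vehicle libraries. In KO_M1 it stood at 1056, 632 and 1425 CPM (log2FC 1.74, SE 0.757, edgeR's adjusted p 0.0649). S100a9 stood at 218.8 to 272.1 CPM in KO_M0 and at 528.8, 305.3 and 900.5 CPM in KO_M1 (1.29, SE 0.757, 0.173).

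In WT macrophages the subunits parted under M1 conditions. S100a8 stood at 277.7, 161.8 and 145.4 CPM in WT_M0 and at 361.0, 434.0 and 319.5 CPM in WT_M1, with no overlap (log2FC 0.93, SE 0.746, edgeR's adjusted p 0.452). S100a9 stood at 166.9, 113.5 and 89.2 CPM in WT_M0 and at 108.5, 121.9 and 105.7 CPM in WT_M1, with overlap (-0.14, SE 0.760, 0.933).

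The number of S100a9 counts per 100 S100a8 counts differed between populations. It was 60.1 to 70.2 in the WT_M0 vehicle libraries and 28.1 to 33.1 in WT_M1. In KO vehicle libraries it was 73.2 to 78.2 in M0, 48.3 to 63.2 in M1 and 83.7 to 88.9 in M2. With AP-3-84 it was 18.7 to 28.1 in WT_M1 and 91.8 to 98.9 in KO_M2. WT_M1 lay below all other marrow-derived populations in all 6 of its libraries, and KO_M2 lay above all others in its 6. WT_M2 with vehicle (55.6 to 75.6) overlapped WT_M0. These are ratios of counts, compared between populations only and given with no test.

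**Figure D3:**
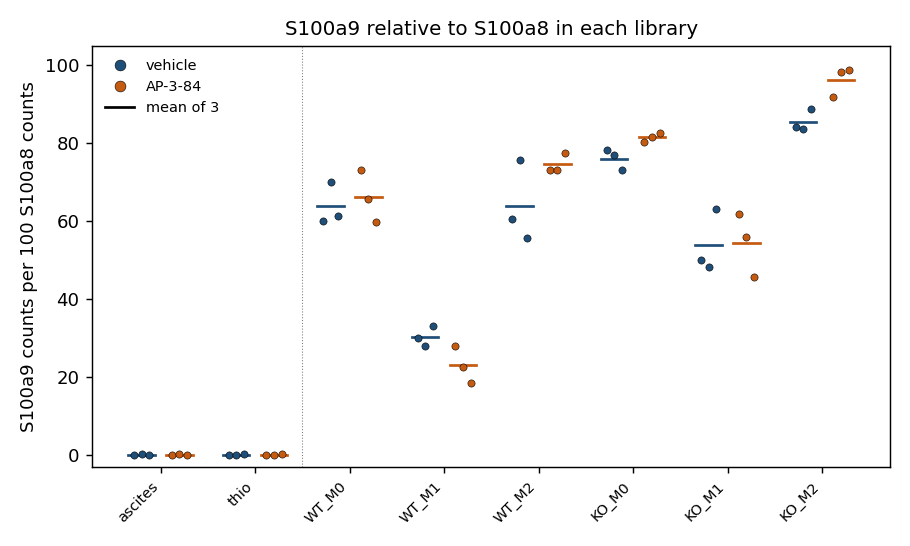
S100a9 counts per 100 S100a8 counts (vertical axis) in each library, by population, with vehicle in blue, AP-3-84 in orange and bars at the mean of 3. The 6 WT_M1 libraries lie between 18.7 and 33.1, the 6 KO_M2 libraries between 83.7 and 98.9, and the 12 peritoneal libraries at 0 to 0.461.

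The higher calprotectin of WT_M2 rested on 1 library. S100a8 stood at 2310 CPM in WT_M2 vehicle replicate 1 and at 305.5 and 261.2 CPM in the other 2, and S100a9 at 1402, 231.0 and 145.3 CPM. Against WT_M0 the log2FC values were 2.30 (SE 0.772, edgeR's adjusted p 0.0325) and 2.27 (SE 0.783, 0.0371). Without replicate 1 the adjusted p were 0.632 and 0.598, the highest of 12 alternatives each. Leaving out WT_M0 vehicle replicate 2 or 3 also ended the S100a8 call (0.111 and 0.107), and scaling by total counts (0.054) did too. The S100a9 call was lost in 7 of its 12 alternatives.

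In KO_M2, replicate 3 took the same place. S100a8 stood at 169.8, 306.8 and 1596 CPM there and S100a9 at 143.0, 256.8 and 1419 CPM, so that the KO_M0 values given above lay inside the range of each. Neither was called (log2FC values 1.15 and 1.35, SE 0.746 and 0.759, edgeR's adjusted p 0.232 and 0.165).

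Mpo encodes myeloperoxidase, the primary granule enzyme that makes hypochlorous acid. Its RNA parted WT from p53 KO macrophages under M1 conditions. It stood at 18.4, 16.5 and 21.0 CPM (67, 65 and 94 counts) in KO_M1 vehicle libraries and at 0.298, 0.530 and 0.504 CPM (1, 2 and 2 counts) in WT_M1. The groups were far apart, with a log2FC of 5.27 (SE 0.796, edgeR's adjusted p 9.84e-05), a call kept under all 12 alternatives. Since WT_M1 had 5 Mpo counts in all, the size of that fold is not well determined. Mpo overlaps the antisense gene Gm11505 on chromosome 11 (87793581 to 87804413 in GRCm38), and how the counting treated strand is not given in the sources used here.

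Mpo also rose from KO_M0 to KO_M1 and differed between genotypes in its response to M1 conditions. It stood at 5.77, 5.23 and 1.62 CPM in KO_M0, all below KO_M1 (log2FC 2.14, SE 0.591, edgeR's adjusted p 0.00399), a call kept under all 12 alternatives. In WT the same step went from 2.69, 1.20 and 0.256 CPM in M0 to the values above, and was not called (-1.58, SE 0.995, 0.312). The test of the difference between these steps gave 3.73 (SE 1.15, edgeR's adjusted p 0.0200). That call was lost without WT_M0 vehicle replicate 1 (0.173), the library with 12 of the 18 Mpo counts of its group.

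In M2 macrophages Mpo was again higher in KO. The KO_M2 vehicle libraries stood at 3.18, 18.5 and 8.68 CPM and the WT_M2 libraries at 1.95, 2.41 and 0.950 CPM, without overlap. The log2FC of 2.49 (SE 0.669, edgeR's adjusted p 0.0308) was lost in 6 of 12 alternatives, with adjusted p up to 0.218 (without KO_M2 vehicle replicate 2). In M0 the log2FC of KO against WT was 1.55 (SE 0.713, 0.0938).

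Elane, which encodes neutrophil elastase, was below the filter, with 28 counts over the 3 KO_M1 vehicle libraries (2.03 to 2.68 CPM) and 45 over the 3 KO_M1 AP-3-84 libraries, of which 32 were in replicate 1. WT_M1 vehicle libraries held 1 count in all. Of the other primary granule proteases, Prtn3 (proteinase 3) was higher in KO_M1 than in WT_M1 by 3.55 (SE 0.820, edgeR's adjusted p 0.00558) and Ctsg (cathepsin G) by 3.40 (SE 0.819, 0.00738). Ctsc, the protease that activates them, was lower by a log2FC of -1.13 (SE 0.225, edgeR's adjusted p 0.00158). The 6 granulocyte progenitor markers, of which Ctsc made up most of the CPM, summed to 283.2 to 627.3 CPM in KO_M1 and to 877.8 to 905.5 CPM in WT_M1. By gene, 3 of the 5 tested were higher and 1, Ctsc, lower. Other marker sums moved with this comparison: the 8 macrophage markers summed to 16910 to 26060 CPM in KO_M1 and to 44060 to 47570 CPM in WT_M1 vehicle libraries, and the 8 neutrophil markers to 18.1 to 28.6 CPM and to 13.3 to 17.6 CPM. Their part in the KO_M1 differences of the members was not tested.

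Ltf, the iron-binding lactoferrin, and Ngp separated WT_M1 from KO_M1. Ltf stood at 0.894, 1.59 and 0 CPM (3, 6 and 0 counts) in WT_M1 vehicle libraries and at 31.0, 5.57 and 46.6 CPM in KO_M1. Ngp stood at 8.05, 6.62 and 9.32 CPM in WT_M1 and at 83.2, 23.3 and 124.8 CPM in KO_M1. In both genes the lowest KO_M1 library lay above the highest WT_M1 library.

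The log2FC values were 5.04 for Ltf (SE 1.32, edgeR's adjusted p 0.0147) and 3.26 for Ngp (SE 0.923, 0.0230). Leaving out 1 vehicle library ended the Ltf call in 3 cases (WT_M1 replicates 1 and 3 and KO_M1 replicate 3, adjusted p 0.0566, 0.0699 and 0.0684). It ended the Ngp call in 5 of 6 cases (0.0574 to 0.105), all except KO_M1 replicate 2. Camp, the cathelicidin gene, stood at 3.18 to 4.03 CPM in WT_M1 and at 16.2, 5.32 and 27.5 CPM in KO_M1, and S100a9 had a log2FC of 2.37 there. Neither was called (edgeR's adjusted p 0.0782 and 0.0509).

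Ltf and Ngp stood lower in WT_M1 than in WT_M0 as well, without passing edgeR's test. Ltf stood at 9.56 to 11.7 CPM and Ngp at 26.1 to 39.7 CPM in WT_M0, above every WT_M1 vehicle library. The log2FC values of WT_M1 against WT_M0 were -3.65 for Ltf (SE 1.40, edgeR's adjusted p 0.0792) and -2.07 for Ngp (SE 0.923, 0.138). DESeq2 called both (adjusted p 0.00424 and 0.0443). In KO the same step left Ltf and Ngp overlapping (17.9 to 23.4 CPM in KO_M0 for Ltf and 53.7 to 82.5 CPM for Ngp), with log2FC values of 0.40 and 0.20 (edgeR's adjusted p 0.745 and 0.860). The difference of this step, KO minus WT, was called for neither by edgeR. It was 4.04 for Ltf (SE 1.68, edgeR's adjusted p 0.0909) and 2.27 for Ngp (SE 1.21, 0.196).

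**Figure D4:**
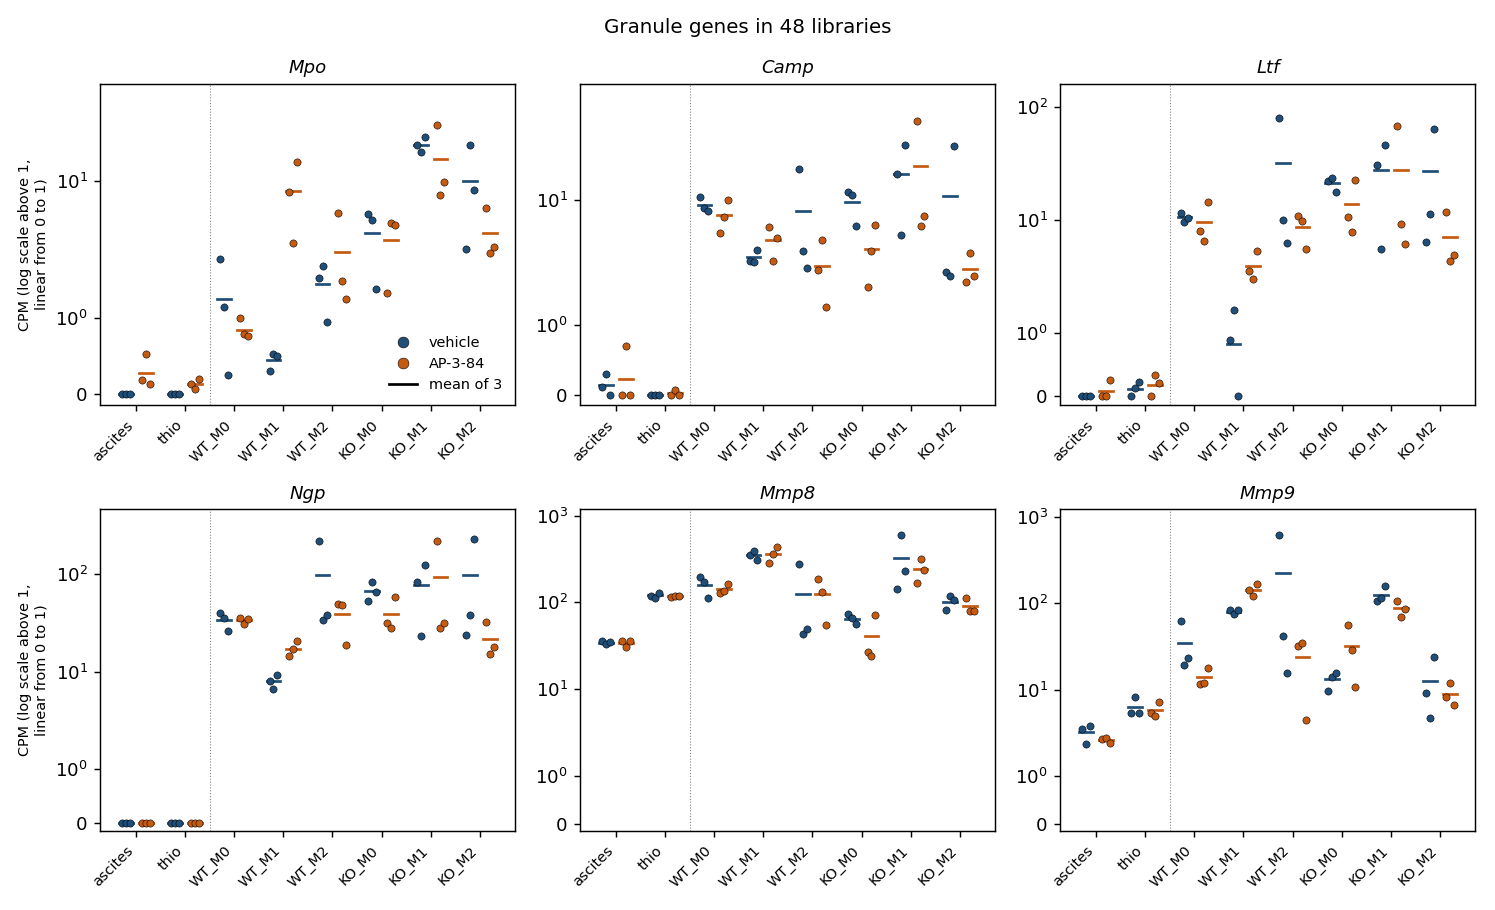
CPM of 6 granule genes in each of the 48 libraries, on axes that are logarithmic above 1 and linear below, by population, with vehicle in blue, AP-3-84 in orange and bars at the mean of 3. Ngp lies at 0 in all 12 peritoneal libraries, Mmp8 is present in all 48, and Ltf lies lowest among marrow-derived vehicle groups in WT_M1 (0 to 1.59 CPM).

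Mmp8 and Mmp9, which cut collagens and gelatin, rose in KO macrophages under M1 conditions. In KO_M1 vehicle libraries Mmp8 stood at 142.6, 591.3 and 231.7 CPM, above KO_M0 at 56.3 to 72.9 CPM, and Mmp9 stood at 106.6, 113.9 and 158.9 CPM, above KO_M0 at 9.70 to 15.7 CPM. Both rose, by log2FC values of 2.31 (SE 0.582, edgeR's adjusted p 0.00238) and 3.26 (SE 0.916, 0.00561), and both calls were kept under all 12 alternatives.

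In WT the same genes did not pass the test. Mmp8 stood at 356.5, 393.4 and 310.9 CPM in WT_M1 and at 198.3, 171.3 and 111.9 CPM in WT_M0 (log2FC 1.14, SE 0.556, edgeR's adjusted p 0.1798). Mmp9 stood at 74.7 to 83.3 CPM in WT_M1 and at 61.7, 19.1 and 23.3 CPM in WT_M0 (1.20, SE 0.829, 0.369). The groups did not overlap in either gene. The M1 change of Mmp8 and Mmp9 was not called different between the genotypes.

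Mmp9 in WT_M2 again turned on replicate 1, at 612.7 CPM against 41.3 and 15.5 CPM in the other 2. The comparison with WT_M0 gave 2.68 (SE 0.851, edgeR's adjusted p 0.0237) and, without that library, -0.29 (0.797). KO_M2 libraries stood at 9.02, 4.73 and 24.1 CPM, so that KO_M2 was lower than WT_M2 by a log2FC of -4.15 (SE 0.934, 0.0136), lost without WT_M2 vehicle replicate 1 (-1.19, 0.355) or KO_M2 vehicle replicate 2 (-3.75, 0.0843). Without WT_M2 replicate 1, Mmp8 was called lower in WT_M2 than in WT_M0 (edgeR's adjusted p 0.0154), whereas with it Mmp8 was not called (-0.37, 0.674).

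Cd177, a surface protein of a part of mouse and human neutrophils, was at 0 counts in 14 of the 36 marrow-derived libraries. It reached 37 counts in WT_M2 vehicle replicate 1 and 26 in KO_M2 vehicle replicate 3, and no more than 11 in any other library. It was called in none of the comparisons by edgeR or DESeq2.

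AP-3-84 against vehicle gave no call for a member in any of the 8 populations by edgeR in its main setting, with the filter on low counts. The shares of all tested genes called were 1.79% in ascites, 4.32% in thio, 0.144% in WT_M0, 0.017% in WT_M1, 1.21% in WT_M2, 20.7% in KO_M0, 0.0% in KO_M1 and 0.0509% in KO_M2. The members with an unadjusted p under 0.05 numbered 1 in thio, 1 in WT_M1, 4 in WT_M2 and 5 in KO_M2, and 0 in the other populations. Of all tested genes, 2665 of 16955 had such a p in thio. In WT_M1, WT_M2 and KO_M2 it was 857, 1386 and 1454 of 11779. The last 2 comparisons each hold a vehicle library that stood apart, WT_M2 vehicle replicate 1 and KO_M2 vehicle replicate 3. DESeq2 called 1 member in WT_M1 and 1 in WT_M2 and 0 elsewhere. Without the filter on low counts, edgeR called 1 member in WT_M0, 5 in WT_M1, 7 in WT_M2, 6 in KO_M0 and 5 in KO_M2. The share of all genes called without the filter is not given. In WT_M1 some other tested members lay higher with AP-3-84 than with vehicle, without overlap and without a call. S100a8 stood at 498.9 to 1082 against 319.5 to 434.0 CPM, and S100a9 at 130.3 to 202.0 against 105.7 to 121.9 CPM. Mmp9 stood at 121.7 to 168.6 against 74.7 to 83.3 CPM. Ngp stood at 14.4 to 20.5 against 6.62 to 9.32 CPM, and Ltf at 3.025 to 5.29 against 0 to 1.59 CPM. Camp, Mmp8 and Cd177 overlapped. The share of all tested genes without overlap between these libraries was not computed, so the number of such members cannot be weighed.

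The member that DESeq2 called in WT_M1 was Mpo. Its counts were 1, 2 and 2 with vehicle and 26, 14 and 42 with AP-3-84 (0.298 to 0.530 against 3.53 to 13.9 CPM), without overlap. The log2FC was 4.14 (SE 0.832) with edgeR's adjusted p of 0.0587, from 0.0376 without AP-3-84 replicate 2, and a DESeq2 adjusted p of 0.00326. In KO_M1, where vehicle libraries already held 65 to 94 counts, the AP-3-84 libraries stood at 103, 31 and 47 counts (log2FC -0.35, SE 0.533, edgeR's adjusted p 1.0).

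The difference between those Mpo responses, KO_M1 minus WT_M1, was -4.49 (SE 1.01, edgeR's adjusted p 0.394, DESeq2 adjusted p 0.0479). By edgeR no member was called in the differences of the AP-3-84 response between genotypes in M0 (17.0% of all genes), M1 (0.00849%) or M2 (1.77%), or between ascites and thio (0.118%). At an unadjusted p under 0.05 there were 0, 1, 2 and 0 members, and DESeq2 called 0, 1, 0 and 0. Of all tested genes, 3659, 831 and 1815 of 11779 and 1295 of 16955 had such a p, in the same order.

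Mmp9 was the member that DESeq2 called in WT_M2. It stood at 612.7, 41.3 and 15.5 CPM with vehicle and at 32.1, 34.6 and 4.45 CPM with AP-3-84, with overlap (log2FC -3.24, SE 0.885, edgeR's adjusted p 0.0712, DESeq2 adjusted p 0.00599). In each M2 population, the highest vehicle library for calprotectin was 1 of the 4 that stand apart, and the other vehicle libraries overlapped those with AP-3-84. S100a8 stood at 101.2 to 275.1 CPM in WT_M2 with AP-3-84, and at 2310, 305.5 and 261.2 CPM with vehicle. In KO_M2 it stood at 128.2 to 259.9 CPM with AP-3-84, and at 169.8, 306.8 and 1596 CPM with vehicle. The log2FC values were -2.29 (edgeR's adjusted p 0.182) and -2.002 (0.275), and without the 4 libraries that stand apart -0.53 and -0.46. In thio, S100a8 stood at 51.5, 57.7 and 58.0 CPM with AP-3-84, below the vehicle libraries at 61.7 to 65.0 CPM, and was not called (-0.19, SE 0.0872, 0.286). In KO_M0, S100a8 stood at 144.8 to 225.8 CPM with AP-3-84 and at 282.7 to 353.7 CPM with vehicle, without overlap. S100a9 stood at 117.5 to 186.6 CPM and at 218.8 to 272.1 CPM there. Neither was called in KO_M0 (log2FC -0.86 and -0.75, edgeR's adjusted p 0.446 and 0.516).

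The 4 marrow-derived libraries with the highest summed CPM of Camp, Ltf and Ngp were KO_M1 AP-3-84 replicate 1 (333.7 CPM), KO_M2 vehicle replicate 3 (324.2), WT_M2 vehicle replicate 1 (318.6) and KO_M1 vehicle replicate 3 (198.8). They come from 4 different groups and the other libraries of the first 3 groups stood at 43.8 to 45.2 CPM, 32.9 to 52.3 CPM and 47.5 and 47.95 CPM. In KO_M1 vehicle, replicate 1 stood at 130.5 CPM.

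The same 4 libraries were the 4 highest of 36 for Camp, Ltf and Ngp each, and also for S100a8 and S100a9, which were not used to pick them. For S100a8 the fourth stood at 1425 CPM and the fifth library at 1082 CPM, and for S100a9 at 900.5 and 528.8 CPM. Of the 4 highest libraries for Cd177, 3 were among them, and 2 each for Mmp9, Mpo and Elane. For Mmp8 it was 0, and its highest value was in KO_M1 vehicle replicate 2 (591.3 CPM).

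**Figure D5:**
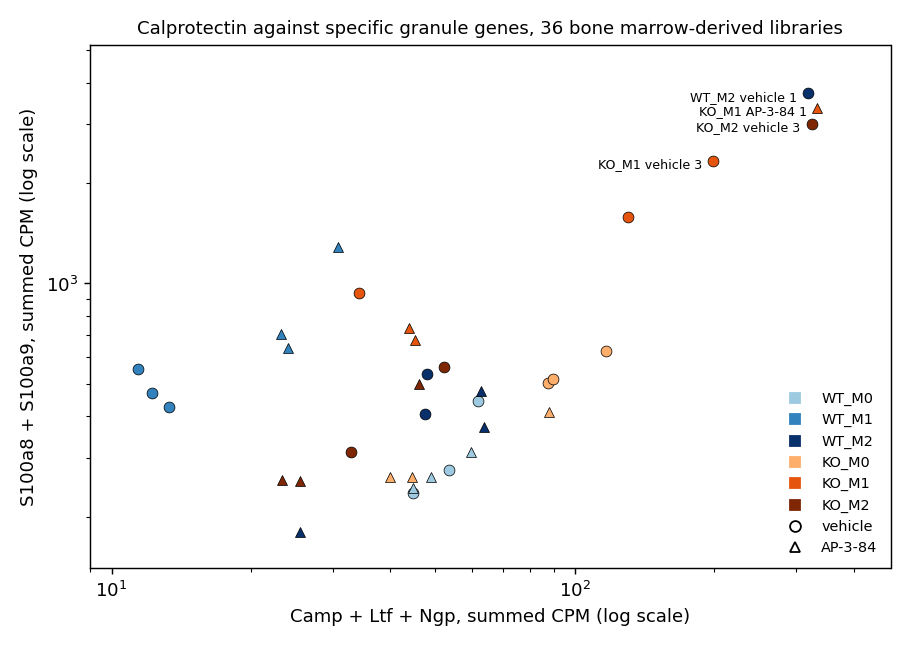
Summed CPM of S100a8 and S100a9 (vertical, log scale) against summed CPM of Camp, Ltf and Ngp (horizontal, log scale) in the 36 marrow-derived libraries, coloured by population, circles for vehicle and triangles for AP-3-84. The 4 named libraries lie at the upper right, and the 3 WT_M1 vehicle libraries at 11.4 to 13.3 CPM on the horizontal axis have calprotectin of 425.2 to 555.9 CPM.

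Calprotectin and the granule genes parted in WT_M1. There the vehicle libraries held 23.9 to 38.1 S100a8 counts for each count of Camp, Ltf and Ngp together, against 3.02 to 4.49 in WT_M0, 5.50 to 7.25 in WT_M2, 3.02 to 3.33 in KO_M0, 7.17 to 18.5 in KO_M1 and 4.92 to 5.87 in KO_M2. In the peritoneum the same ratio was 39.8 to 530.0 in the libraries with any Camp, Ltf or Ngp count. The WT_M1 range did not meet that of any other marrow-derived vehicle group.

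Some other neutrophil genes stood high in the 4 libraries and others had few counts, and their part in the calprotectin values was not tested. The 8 neutrophil markers summed to 31.3 CPM in KO_M1 AP-3-84 replicate 1, 56.3 in KO_M2 vehicle replicate 3, 51.5 in WT_M2 vehicle replicate 1 and 25.4 in KO_M1 vehicle replicate 3, and to 6.95 to 29.9 CPM in the other 32. KO_M1 vehicle replicate 3 thus lay inside the range of the other 32 and below the highest library of its own group (28.6 CPM). Itgb2l, an integrin subunit of mouse neutrophils, stood at 3.12 to 5.71 CPM in the 4 and at no more than 1.32 CPM in the others. Cebpe, the factor of the myelocyte stage, stood at 2.23 to 4.46 CPM and at no more than 2.03 CPM. Ly6g, the defining surface marker of mature mouse neutrophils, had 5, 4, 4 and 0 counts in the 4 libraries. Of the same 8 markers, Retnlg had 6, 2, 0 and 3 counts in them and Mmp25 had 1, 4, 1 and 3.

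Macrophage markers were not uniformly low in these libraries. They summed to 12660 CPM, 6761 CPM, 30380 CPM and 17190 CPM in the same order, with 6761 to 20130 CPM over all KO_M2 vehicle libraries and 26820 to 33440 CPM over all WT_M2 vehicle libraries. KO_M2 vehicle replicate 3 had the lowest sum of the 36. Lyz2 alone, in the same order, stood at 8104, 3091, 24380 and 12340 CPM of these sums.

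Leaving out the 4 libraries together, a setting chosen after seeing the data, changed some calls and not others. Camp, Ltf and Ngp picked these libraries and S100a8 and S100a9 were highest in them, so removing them narrows the spread of these 5 genes, and no p without them is given as support for a difference in these genes. In WT_M2 against WT_M0 the S100a8 and S100a9 log2FC values shrank to 0.54 and 0.61, and the Mmp9 call was lost (edgeR's adjusted p 0.791). In that comparison 2 members not called with all libraries were called instead, under the same limit. In KO_M1 against WT_M1 the log2FC values were 4.46 for Ltf and 2.75 for Ngp, and Mpo was called at 5.20 (edgeR's adjusted p 0.000314). In KO_M1 against KO_M0, Mmp8, Mpo and Mmp9 were again called. Both calls of KO_M2 against WT_M2 were lost (Mpo 2.65, 0.198, and Mmp9 -2.08, 0.311).

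By a fixed measure of likeness, Pearson's r of log2 CPM over the 36 marrow-derived libraries, the genes most like S100a8 were S100a9 (0.862), Hilpda (0.859), a lipid droplet protein gene, the stefin-like genes BC100530 (0.852) and Gm5483 (0.841), and Wfdc21 (0.825). Among members the next were Mmp9 (0.733), Camp (0.665) and Cd177 (0.662), and the least like were Ngp (0.533), Mmp8 (0.525) and Ltf (0.419). The points share groups, depth within each library and the 4 libraries above, so the values are descriptions. Over the 12 peritoneal libraries Mmp8 made up at least 96.2% of the summed granule CPM, and the libraries fell into ascites and thio clusters, so no likeness over them is given.

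Genes of other granule proteins were called in the M1 and M2 comparisons. Of 23 tested genes for other granule proteins, 8 were called higher and 0 lower in WT_M1 against WT_M0 (median log2FC 0.42, 0.00 over all genes, of which 15.5% were called), and 13 higher and 2 lower in KO_M1 against KO_M0 (0.90, -0.01 over all genes, 44.5% called). Lcn2, the iron-scavenging lipocalin of secondary granules that activated macrophages also make, rose by 6.66 in WT_M1 (SE 0.810, edgeR's adjusted p 4.34e-06) and by 5.61 in KO_M1 (SE 0.781, 3.84e-06). Hp (haptoglobin) rose by 4.10 and 4.39 (3.51e-06 and 6.37e-07). Ltf, of the same granule as Lcn2, was at 0 to 6 counts in WT_M1. In WT_M2 against WT_M0, 5 of the 23 were higher and 2 lower (23.4% of all genes were called), with Chil3, a secreted chitinase-like protein, higher by 7.27 (SE 0.717, 5.27e-08).

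Of 22 tested genes of neutrophil surface and lineage, 14 were higher and 0 lower in KO_M1 against KO_M0 (median log2FC 3.63, -0.01 over all genes, of which 44.5% were called), led by the formyl peptide receptors Fpr1 (7.31, SE 0.862, edgeR's adjusted p 4.20e-07) and Fpr2 (6.07, SE 0.732, 5.62e-07) and by Trem1 (3.90, SE 0.519, 6.52e-07). In WT_M1 against WT_M0, 5 were higher and 0 lower (1.19), a share near the 15.5% of all genes called. In KO_M0 against WT_M0, 0 were higher and 7 lower (-0.61, 0.03 over all genes, 33.2% called), and in KO_M1 against WT_M1, 3 were higher (Ms4a3, 3.31, among them) and 1 lower (11.6% called). Several of these receptors are made by activated macrophages too.

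Among the 12 tested genes of the S100 family and calprotectin receptors, calls went in both directions. S100a4 and S100a6 fell in WT_M1 against WT_M0 by 1.91 and 0.89 on the log2 scale (edgeR's adjusted p 8.81e-08 and 0.00046), and Bsg, a receptor of S100A9, rose by 0.82 (4.46e-05). In all, 3 were higher and 4 lower there (15.5% of all genes were called). In KO_M1 against KO_M0, 1 was higher and 5 lower, close to the 44.5% of all genes called. The receptor Tlr4 rose in WT_M2 by 1.08 (SE 0.240, 0.00125).

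Among inhibitors of granule proteases, Slpi and Timp2 changed in opposite directions under M1 conditions. Slpi, the inhibitor of elastase and cathepsin G, rose by 4.59 in WT_M1 (SE 0.787, edgeR's adjusted p 0.000285) and by 6.90 in KO_M1 (SE 0.936, 2.74e-06). Timp2, an inhibitor of matrix metalloproteinases, fell by 1.75 and by 2.61 on the log2 scale (1.18e-05 and 4.36e-09) in the same comparisons, in which Mmp8 and Mmp9 stood higher. In WT_M2 against WT_M0, Timp2 rose by 2.25 (SE 0.246, 4.89e-08). Of 11 tested inhibitors, 2 were higher and 2 lower in WT_M1 (15.5% of all genes called), 5 and 2 in KO_M1 (44.5%), 5 and 0 in WT_M2 (23.4%) and 5 and 3 in KO_M2 (38.0%), each against M0 of its genotype. Among 11 tested matrix and mobilization partners, Mmp14, a membrane-bound metalloproteinase, rose in KO_M1 by 2.70 (SE 0.490, 9.16e-05), as 1 of 4 that were higher, with 2 lower (44.5% of all genes).

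Transcription factors of granulocytes changed in both directions. Of 9 tested, 3 were higher and 3 lower in KO_M1 against KO_M0 (44.5% of all genes called), with Cebpb, the C/EBP factor of activated macrophages, at a log2FC of 1.20 (SE 0.179, edgeR's adjusted p 3.10e-06), and Cebpa at -2.81 (SE 0.377, 1.40e-06). In WT_M1 against WT_M0, 1 was higher (Irf8, 0.62) and 1 lower (Klf4, -1.17), near the 15.5% of all genes called. In ascites against thio, 4 of 9 were higher and 3 lower (33.7% of all genes called), with Cebpd higher by 1.01 (SE 0.101, 3.34e-07).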

How the data were processed

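RNA of 48 macrophage libraries was measured by 3′ end sequencing from 100 ng of RNA with single reads of 75 bases. The authors deposited 1 table of whole-number counts per gene. Per the submitters' processing notes, RSEM, Bowtie2 and DESeq2 were used, with no version or role; if the counts come from RSEM, they are rounded estimates. For the build, annotation and strand setting of the counts, nothing was stated in these sources. The members and gene lists were chosen with earlier results of these data known. Symbols were matched for 51596 of 51789 gene IDs, and 0 columns belonged to no sample. Coordinates are from GENCODE M21 (GRCm38).

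Peritoneal and marrow-derived libraries were fitted apart in edgeR 4.0.16 (limma 3.58.1, R 4.3.3) with TMM scaling, its filter on low counts, quasi-likelihood F tests (two-sided) and Benjamini-Hochberg adjustment, over 16955 and 11779 genes. DESeq2 1.42.0 and other scalings, filters and left-out libraries were alternatives. Shares of all genes called are those of the main edgeR fit. Tables were built in Python 3.11.15 with pandas 2.3.3, and the tests were checked on simulated data. All 10 members are named, and list examples are the called genes with the lowest p, at most 3 per list and comparison. Likeness used log2 CPM with a prior count of 1 for genes averaging at least 3. Floors are 3 counts and cover counting error only. Over 48 pairs of replicates the mean chi-square per gene was 2.51 to 38.7, so no 2 replicates of a group appeared to be 1 library. Pairs across groups were not compared.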

Additional observations from a re-analysis of the deposited data

Results flagged for a closer look

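The M1 change of Mpo differed between genotypes by an interaction test. In vehicle libraries the log2 fold change of M1 against M0 was larger in KO than in WT by 3.73 (SE 1.15, edgeR adjusted p 0.0200). Mpo had 1 to 12 counts in the WT_M0 and WT_M1 libraries, and the call was lost without WT_M0 vehicle replicate 1 (adjusted p 0.173).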

How the results depend on the processing

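Values are counts of members called. The share of all genes called is not given for these settings, so a general rise in calls and one in these members cannot be told apart. Same-numbered libraries shared little of their deviations from group means (r -0.308 to 0.345, over 0.1 in 4 of 24 pairs). A low r cannot exclude pairing, and the values over 0.1 were in WT_M2 (0.195 and 0.207) and KO_M1 (0.262 and 0.345). With a replicate block, WT_M2 against WT_M0 had 2 calls in place of 3. Without the filter on low counts, AP-3-84 calls were 1 (WT_M0), 5 (WT_M1), 7 (WT_M2), 6 (KO_M0) and 5 (KO_M2) in place of 0. In vehicle comparisons they were 6 (WT_M1 against WT_M0), 5 (WT_M2 against WT_M0), 5 (KO_M1 against KO_M0), 6 (KO_M2 against KO_M0), 7 (KO_M0 against WT_M0) and 8 (KO_M1 against WT_M1). In differences they were 1, 4 and 1 (AP-3-84 response in M0, M1 and M2), 8 (M1 change) and 6 (M2 change).
DESeq2 gave 1 for AP-3-84 in WT_M1, 1 in WT_M2 and 1 for the difference in M1, and gave 2 in WT_M1 against WT_M0, 5 in KO_M1 against WT_M1 and 2 for the M1 change. Scaling by total counts gave 1 in WT_M1 against WT_M0 (Ltf), 1 in WT_M2 against WT_M0 and 5 in KO_M1 against WT_M1. Without the 4 libraries highest in Camp, Ltf and Ngp, which makes counts that include these genes no support for a difference, there was 1 in KO_M2 against KO_M0, 5 in KO_M1 against WT_M1, 0 in KO_M2 against WT_M2, 3 for the M1 change and 1 for the M2 change, and Mmp9 in WT_M2 against WT_M0 turned from 2.68 to -0.29.
Leaving out 1 library gave 0 to 1 for AP-3-84 in WT_M1 and WT_M2, 0 to 3 in WT_M2 against WT_M0 (0 without WT_M0 vehicle replicate 2 or 3), 0 to 1 in KO_M2 against KO_M0 and KO_M0 against WT_M0, 1 to 6 in KO_M1 against WT_M1 (1 without WT_M1 replicate 1 or 3 or KO_M1 replicate 3, 6 without KO_M1 replicate 2), 0 to 2 in KO_M2 against WT_M2 (0 without WT_M2 replicate 1 or KO_M2 replicate 2) and 0 to 1 for each change. The Mmp9 log2 fold change in WT_M2 against WT_M0 ranged from -0.29 to 3.40. The causes were not tested beyond the fewer samples or more genes of each setting. Groups of 3, and few counts of Mpo, Ltf and Elane in WT_M1, limit these calls.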
